A study of Homo sapiens with 18 samples.

Results

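CSF1 and CX3CL1 are a pair of genes for immune signalling proteins, taken by gene name from the deposited RNA-seq table of UMRC2 cells. They are 2 of the 1242 genes in that table, which lists genes that the authors had called in their comparison of shFTO#5 with shControl. Both genes were thus selected on their shControl and shFTO#5 values, which are described here and not tested. UMRC2 is an established human cell line from a clear cell renal carcinoma, without a working VHL tumour suppressor. All libraries came from these cells grown in DMEM with 10% FBS, and each group carried 1 short hairpin RNA: the control hairpin shControl, or shFTO#2 or shFTO#5 against FTO, the enzyme that removes N6-methyladenosine (m6A) from RNA. The 6 RNA-seq libraries of the series, 2 per group, were used, and the other 12 libraries, m6A inputs and immunoprecipitates, were not analysed here.

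CSF1 encodes macrophage colony-stimulating factor, which drives the survival and growth of monocytes and macrophages through the receptor CSF1R. Renal tumours and injured tubules are known sources of it. CX3CL1 encodes fractalkine, a chemokine on a mucin stalk anchored in the cell membrane. The metalloproteases ADAM10 and ADAM17 cut it loose, and its receptor CX3CR1 sits on monocytes, NK cells and T cells. The libraries measure RNA, so the secreted or shed protein is not described by these values.

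CSF1 (ENSG00000184371) is a protein-coding gene on the plus strand of chromosome 1, from 109910242 to 109930992 in hg38. CX3CL1 (ENSG00000006210) is a protein-coding gene on the plus strand of chromosome 16, from 57372458 to 57385048. The annotation holds 9 transcripts of CSF1 and 4 of CX3CL1, and the deposited values are sums per gene, so secreted and membrane-bound forms of CSF1 are not separated. The gene lengths behind the values, 4210 bases for CSF1 and 5796 for CX3CL1, are those of the longest annotated transcript of each gene.

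Library totals were 14548533 to 18184675 reads, and the listed genes had a median control level of 33.4 FPKM (reads scaled to the gene's length and the library's total). FTO itself measured 1.99 and 2.37 FPKM in shControl, 0.882 and 0.720 FPKM with shFTO#2, and 0.555 and 0.526 FPKM with shFTO#5. With both hairpins it was thus below both controls (exact two-sided permutation p = 0.333 for each, the smallest that 2 libraries against 2 allow). FTO is also a called gene. Libraries were clear of the controls in 1242 of 1242 genes with shFTO#5 and 561 of 561 with shFTO#2 (100.0% each). The listing thus fixed this separation and its p-value, and the FTO levels are a description. Of 10 renal tubule and clear cell carcinoma markers 7 were among the listed genes, against 13.0% of all genes the authors tested. PAX8, a renal transcription factor, was at 79.3 and 76.4 FPKM in shControl, and CA9, a carbonic anhydrase raised when VHL is lost, at 14.4 and 14.2 FPKM. With shFTO#5, 5 of the 7 were higher than control, PAX8 by 0.18 ± 0.04 (SE) and CA9 by 0.40 ± 0.05 in log2(FPKM + 1), and 2 were lower, PAX2, a renal developmental transcription factor, at -0.53 ± 0.06 and LRP2, the proximal tubule receptor megalin, at -0.58 ± 0.07. The part of these markers in the results on CSF1 and CX3CL1 was not tested. Of 37 markers of macrophages, lymphocytes, other leukocytes, endothelium and fibroblasts, 0 were listed, which says only that none was called. In these bulk libraries, a lower level in every cell and a smaller share of expressing cells cannot be told apart.

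CSF1 differed in opposite directions from control with the 2 hairpins, and its levels in the 3 groups did not overlap. The shControl libraries held 31.1 and 31.5 FPKM of CSF1, from 2383 and 2155 reads. The shFTO#5 libraries held 36.9 and 35.0 FPKM, from 2260 and 2473 reads. The shFTO#2 libraries held 25.7 and 27.2 FPKM, from 1887 and 1788 reads. Both shFTO#5 libraries thus lay above both controls, and both shFTO#2 libraries lay below them. Groups without overlap are what the listing of called genes brings. The shFTO#5 libraries were clear of the controls in 1242 of 1242 genes (100.0%). All 3 groups were clear of each other, in any order, in 329 of the 561 genes with values in every library (58.6%). Opposite sides of control were rare among these genes. All knockdown libraries lay on the same side of both controls in 559 of the 561 (99.6%), and CSF1 was not among those.

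As group means, CSF1 was at 31.3 ± 0.267 FPKM in shControl, 35.9 ± 1.38 with shFTO#5 and 26.5 ± 1.10 with shFTO#2 (SD, n = 2 each). These are 115% of the control level with shFTO#5 and 84.5% with shFTO#2. The 95% counting intervals of the reads (exact Poisson, counting error only) reached from 29.9 to 32.9 FPKM over the shControl libraries. They reached from 33.6 to 38.5 over the shFTO#5 libraries and from 24.5 to 28.5 over the shFTO#2 libraries, and these ranges did not meet. A gap is favoured by the calls that listed the gene. Replicates also spread beyond counting error over all genes with values (chi-square per degree of freedom 3.58 in shControl, 2.41 with shFTO#5 and 4.54 with shFTO#2). Between replicates the SD on the log2(FPKM + 1) scale was 0.01 for shControl, 0.05 for shFTO#5 and 0.06 for shFTO#2, against a median of 0.03 over all genes with values in each group.

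CX3CL1 was lower than control with both hairpins, at nearly the same level in the 4 knockdown libraries. In shControl it measured 3.05 and 2.98 FPKM, from 321 and 281 reads. With shFTO#5 it measured 1.80 FPKM in both libraries, from 152 and 175 reads. With shFTO#2 it measured 1.73 and 1.96 FPKM, from 175 and 177 reads. All 4 knockdown libraries lay below both controls, and the shFTO#5 libraries lay between the shFTO#2 libraries. Lying on the same side of both controls is no mark of CX3CL1, since all knockdown libraries did so in 559 of the 561 genes (99.6%).

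The group means of CX3CL1 were 3.01 ± 0.0436 FPKM in shControl, 1.80 ± 0.00431 with shFTO#5 and 1.84 ± 0.162 with shFTO#2 (SD, n = 2 each), which leave 59.7% and 61.2% of the control level. The close match of the shFTO#5 replicates is finer than their reads can resolve, since the counting interval of each spans about 1.53 to 2.11 and 1.54 to 2.08 FPKM. The lowest bound of a shControl library was 2.65 FPKM, above the highest bound of any knockdown library, 2.27 FPKM. These bounds hold counting error only, and a gap is favoured by the calls that listed the gene.

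**Figure D1:**
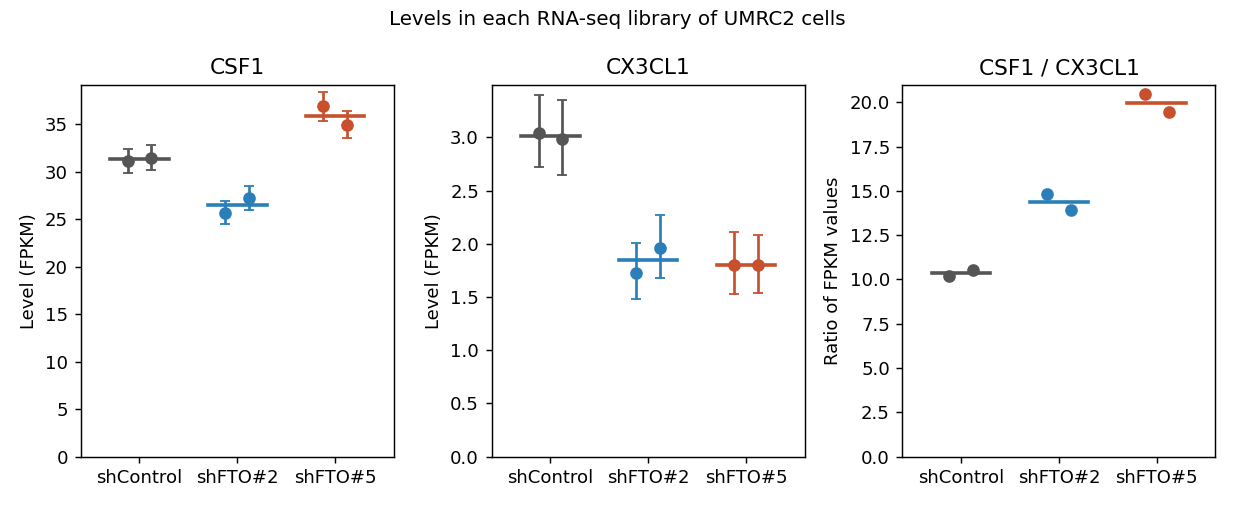
Level of CSF1 and of CX3CL1 in FPKM (vertical axes of the left and middle panels) and the ratio of CSF1 to CX3CL1 (right panel) in each of the 6 libraries by hairpin; points are libraries, horizontal lines are group means and bars are exact 95% Poisson intervals of the reads. CSF1 is above control with shFTO#5 and below it with shFTO#2, CX3CL1 is below control with both, and the ratio is above control in all 4 knockdown libraries.

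The balance of the pair differed between the groups. Per length, shControl cells held 10.2 and 10.6 times as much CSF1 RNA as CX3CL1 RNA. The ratio was 14.8 and 13.9 with shFTO#2, and 20.5 and 19.5 with shFTO#5. The means were 10.4 ± 0.239, 14.4 ± 0.663 and 20.0 ± 0.717 (SD, n = 2 each), and a library's total cancels out of this ratio. A higher ratio with shFTO#5 follows from choosing 1 gene called higher and 1 called lower, so the ratio is a description of the same values and no further result. With shFTO#2 both genes were below control and CX3CL1 by the larger factor, whereas with shFTO#5 they lay on opposite sides of it.

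Among the listed genes the pair stood at different levels. CSF1 ranked 651 and 652 of 1242 from the top in the shControl libraries, near the middle of the table. CX3CL1 ranked 1219 in both, near the bottom. The listed genes with a shControl mean under 5 FPKM numbered 69, and 37 of them were lower with shFTO#5.

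On the log2(FPKM + 1) scale, which understates changes of genes as low as CX3CL1, the fit with limma over all 1242 genes gave a difference of shFTO#5 from shControl of 0.19 ± 0.05 (SE) for CSF1 and -0.52 ± 0.06 for CX3CL1. These sizes depend on the scaling: CSF1 was at 0.10 with libraries centred on their median and 0.12 with quantile normalization, and CX3CL1 at -0.61 and -0.31. Centring shifted the shFTO#5 differences by -0.09, the same for both genes. Both scalings used these called genes alone, whose median difference was 0.15. How far that imbalance sets the moves was not tested. The median absolute difference of all listed genes was 0.27. CSF1 ranked 474 of the 781 higher genes by size, and CX3CL1 ranked 74 of the 461 lower genes. The authors' deposited table gives log2 changes, turned here to knockdown over control, of 0.22 for CSF1 (adjusted p = 0.00464) and -0.47 for CX3CL1 (adjusted p = 0.00321). The authors' calls were 13.0% of the genes they tested with shFTO#5, of which 8.18% of the tested genes were higher and 4.83% lower; both genes are in the table because of these calls, so nothing is read from them.

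**Figure D2:**
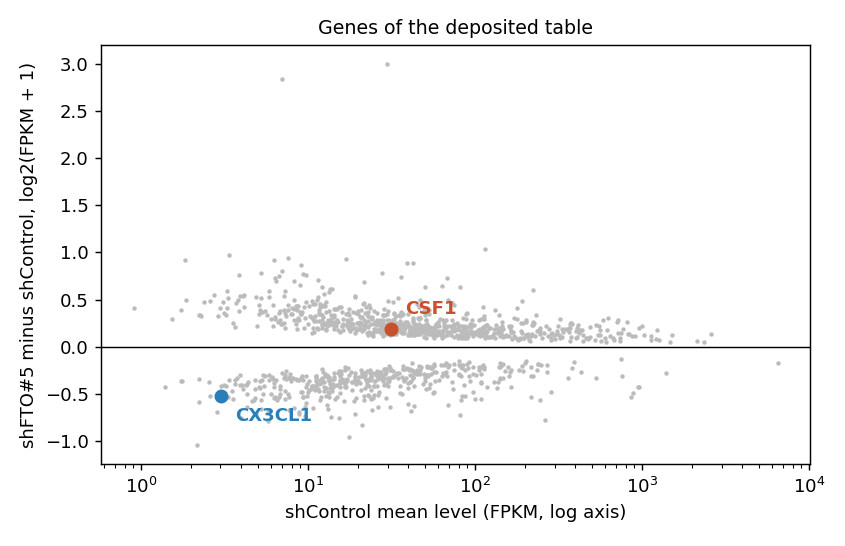
Difference of shFTO#5 from shControl in log2(FPKM + 1) (vertical axis) against the shControl mean level in FPKM (horizontal log axis) for the 1242 genes of the deposited table, each point a gene. The empty band around 0 comes from listing called genes only; CSF1 lies at mid level with a difference of 0.19, and CX3CL1 lies near the low end with -0.52.

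The shFTO#2 values needed to be tied to their genes first, because in the deposited table they stand in a gene order of their own. A value belongs to a gene only if it is a whole number of reads with that gene's length in both shFTO#2 libraries, if the order of gene IDs is kept, and if its level fits the fold change beside it. For CX3CL1, 1 line of the 766 gave whole reads in both libraries, and it stood between ITGA3 and NCAPD2, where the ID of CX3CL1 belongs. For CSF1, 2 lines gave whole reads. The line that was taken stood between IRAK1 and SEMA4B, the neighbours of CSF1 by ID, and it was also chosen when the level was not used. Its read numbers require a gene length that is a multiple of 4210, and of the 196 annotated genes with IDs between these neighbours, CSF1 was the only 1 whose longest transcript has such a length. The other line stood between MAF1 and TMEM64, out of order, and would put CSF1 at 15.8 and 15.2 FPKM, also below control. The listed lengths were those of the longest annotated transcript in 923 of 1242 genes.

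With shFTO#2, the difference from shControl was -0.24 ± 0.05 (SE) for CSF1 and -0.50 ± 0.05 for CX3CL1 on the log2(FPKM + 1) scale, in a limma fit of all 3 groups over the 561 genes with values in every library. In the authors' deposited table the changes were -0.20 for CSF1 (adjusted p = 0.0331) and -0.43 for CX3CL1 (adjusted p = 0.00812), among calls that made up 7.63% of the genes tested with shFTO#2 (3.46% lower, 4.17% higher). Only genes that the authors called have shFTO#2 values, and limma's adjusted p was under 0.05 in 561 of these 561 genes (100.0%), so limma's own p-values (0.000924 for CSF1 and 5.73e-05 for CX3CL1, adjusted) add no call. The hairpins also share the control libraries, so their comparisons with control are not separate checks. Centring each library on its median shifted the shFTO#2 differences by -0.15, and relative to that shift they were -0.38 for CSF1 and -0.65 for CX3CL1.

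The hairpins were then compared with each other, which leaves the control libraries out of the contrast. CSF1 was higher with shFTO#5 than with shFTO#2 by 0.43 ± 0.05 (SE) in log2(FPKM + 1), with a 95% interval from 0.32 to 0.53, and the median absolute difference over the 561 genes was 0.06. These 561 are genes that the authors had called with both hairpins, CSF1 as higher with shFTO#5 and lower with shFTO#2. A positive difference was thus fixed by the choice of the gene and a large one was favoured, so the size is given as a description with no test. For the same reason nothing is read from CSF1 being among the 77 genes (13.7%) whose adjusted p between the hairpins was under 0.05 in limma, and without shFTO#5 replicate 1 its difference was 0.39 and 0 of 561 genes passed (113 had an unadjusted p under 0.05).

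CX3CL1, called lower with both hairpins, did not pass between them. It differed between shFTO#5 and shFTO#2 by -0.02 ± 0.05 (SE) in log2(FPKM + 1) (limma, adjusted p = 0.826), with a 95% interval from -0.15 to 0.10. A small difference is likewise favoured by 2 calls in the same direction.

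**Figure D3:**
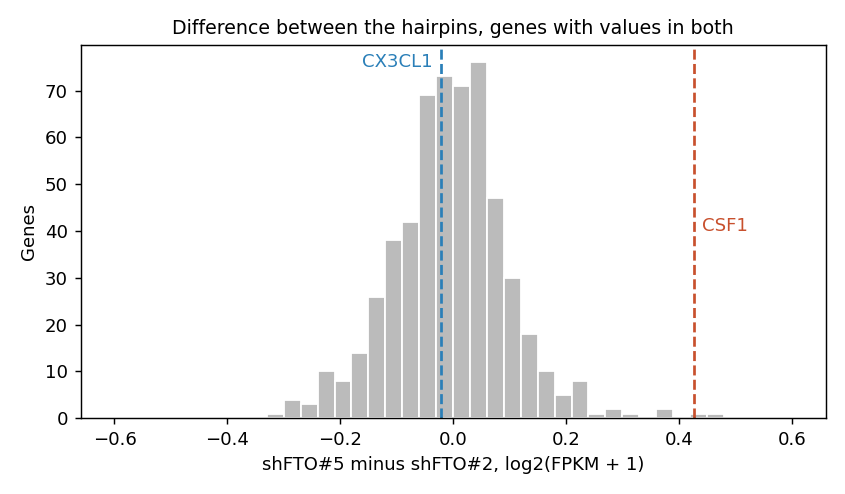
Number of genes (vertical axis) by the difference of shFTO#5 from shFTO#2 in log2(FPKM + 1) (horizontal axis), for the 561 genes with values in all 6 libraries; dashed lines mark CSF1 and CX3CL1. CX3CL1 lies near the centre at -0.02, and CSF1 lies at the right edge at 0.43.

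Around these genes, few members of the gene lists chosen here were in the table. In 8 lists of colony-stimulating factors, the fractalkine axis, chemokines and their receptors, cytokines and their receptors, the NF-kB pathway and immune surface ligands, 14 of 192 genes were listed (7.29%, against 13.0% of all genes tested). Of these 13 were higher with shFTO#5 and CX3CL1 alone was lower. With shFTO#2, 8 had values, 6 higher and 2 lower, the 2 being CSF1 and CX3CL1. Most listed genes were higher with either hairpin: 781 of 1242 with shFTO#5, and 353 of the 561 with shFTO#2 values. Whether the lists differ from these shares was not tested. The table does not show which of the other members were tested, so an unlisted gene is either not called or not measured. The counts also depend on the choice of lists. Receptor genes in the table but outside these lists lay on both sides of control with shFTO#5, such as TNFRSF1A at 0.22 and TGFBR1 at -0.32. They are examples from each side and give no share.

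CSF1 was the only listed member of the 12 colony-stimulating factors and receptors. IL34, the other ligand of CSF1R, and CSF1R itself were not listed. None of 27 other chemokines and none of 17 chemokine receptors was listed, CX3CL1 being the only chemokine in the table. Of the 12 genes of the fractalkine axis 3 were listed, and the receptor CX3CR1 and the sheddases ADAM10 and ADAM17 were not.

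The other listed genes of that axis were integrin beta subunits whose heterodimers bind fractalkine, and both lay on the other side of control from CX3CL1. ITGB3 measured 6.36 and 7.67 FPKM in shControl, 12.9 and 13.0 with shFTO#5, and 11.4 and 11.2 with shFTO#2. ITGB1 measured 141 and 143 FPKM in shControl, 159 and 159 with shFTO#5, and 155 and 157 with shFTO#2. That all knockdown libraries lay above both controls for each gene is no mark of these 2, since all 4 lay on the same side of both controls in 559 of the 561 genes (99.6%).

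Of 35 other cytokines 2 were listed. LIF, a cytokine of the interleukin-6 family, measured 8.63 and 8.50 FPKM in shControl, 10.6 and 10.7 with shFTO#5, and 11.1 in both shFTO#2 libraries. LGALS1, the galectin-1 gene, measured 994 and 1052 FPKM in shControl, 1077 and 1156 with shFTO#5, and 1246 and 1247 with shFTO#2. Both were called higher with both hairpins. Between hairpins the difference of LGALS1 was -0.16 ± 0.04 (SE), of opposite sign to that of CSF1. Of 29 cytokine receptors 2 were listed: OSMR, the oncostatin M receptor subunit, with a shFTO#5 difference of 0.47 ± 0.05 and a shFTO#2 difference of 0.32 ± 0.04, and IL6R, the interleukin-6 receptor, with a shFTO#5 difference of 0.33 ± 0.06.

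The NF-kB pathway, which is known to drive transcription of both CSF1 and CX3CL1 in other settings, had 4 of 33 members listed (12.1%), near the 13.0% called among all genes tested. All 4 were called higher with shFTO#5, as were 781 of the 1242 listed genes (8.18% of all genes tested). Their median difference was 0.30, where that of all listed genes was 0.15 and the median absolute difference 0.27. BIRC3, an inhibitor of apoptosis and NF-kB target, had a difference of 0.41 ± 0.06 (SE) and measured 3.08 and 2.84 FPKM in shControl and 4.23 and 4.26 with shFTO#5. NFKB2, a subunit of the non-canonical pathway, had 0.31 ± 0.05, NFKBIA, the inhibitor that holds NF-kB in the cytoplasm, had 0.28 ± 0.05, and TNIP1, a partner of the inhibitor A20, had 0.15 ± 0.03. None of the 4 had shFTO#2 values tied to it. Of 27 immune surface ligands 2 were listed: PVR, a ligand of NK and T cell receptors, with differences of 0.89 ± 0.04 with shFTO#5 and 0.84 ± 0.03 with shFTO#2, and ICAM1, the adhesion ligand of leukocyte integrins, with 0.44 ± 0.06 with shFTO#5.

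**Figure D4:**
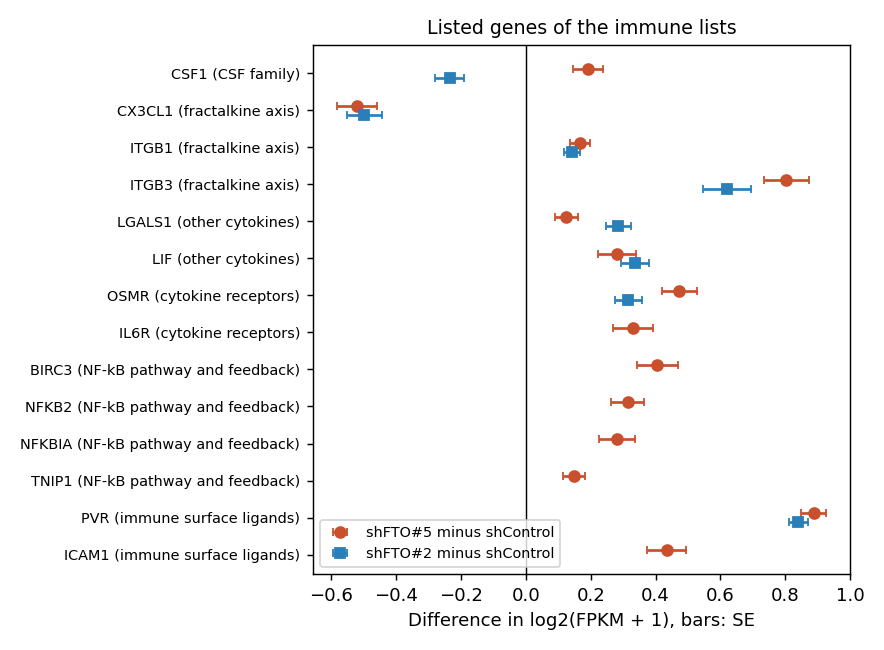
Difference from shControl in log2(FPKM + 1) (horizontal axis; bars are SE) for the 14 listed genes of the immune lists (rows, with the list in parentheses), with shFTO#5 as circles and shFTO#2 as squares where values could be tied to the gene. CX3CL1 lies left of 0 with both hairpins, CSF1 lies on different sides of 0, and the other 12 genes lie right of 0.

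The genes with the profile most like each member were found by the root mean square distance between log2(FPKM + 1) values, each set relative to the gene's shControl mean, over the 4 shControl and shFTO#5 libraries. For CSF1 the nearest of 1242 genes were HJURP, a centromere chaperone (distance 0.0097), URB1, a ribosome biogenesis factor (0.0103), and C10orf2, the mitochondrial helicase (0.0104). Next were IQGAP1, a scaffold of the actin cytoskeleton (0.0112), and ADAMTS9, a metalloprotease of the ADAMTS family (0.0135). With shFTO#2, HJURP was at 48.1 FPKM against 41.4 in shControl and ADAMTS9 at 9.14 against 7.26, so these neighbours did not share the low CSF1 level there. This was nearly fixed beforehand, since all knockdown libraries lay on the same side of both controls in 559 of the 561 genes (99.6%). For CX3CL1 the nearest were PAX2, named above among the renal markers (0.0164), ALDH1A1, a retinaldehyde dehydrogenase (0.0227), FAM211B (0.0249), TPRN, taperin (0.0267), and PHLPP1, a phosphatase of AKT (0.0267).

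Over all 6 libraries and the 561 genes with values in each, a search added after the values were seen, CSF1 had no close neighbour. Opposite sides of control were rare among these genes, as given above, so few could come close. The nearest was AKR1B1, aldose reductase, at a distance of 0.0878, with 1140 FPKM in shControl, 1196 with shFTO#5 and 1007 with shFTO#2, and the next was at 0.193. CX3CL1 kept close neighbours in that search: TSKU, tsukushi, was at 0.0277, with 109 FPKM in shControl, 74.3 with shFTO#5 and 76.7 with shFTO#2, and SMAD9, a BMP signal transducer, was at 0.0306.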

How the data were processed

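The authors deposited FPKM values per library, per the file headers, for genes they had called. Per the submitters' processing notes, reads were processed with STAR, RSEM and Trim Galore 0.4.2 on hg38, each in a role that is not stated. The annotation, the strand setting and the tool of the authors' test are, for the sources used here, not given. Beside them stand the authors' deposited log2 changes with their p-value and adjusted p-value. Their sign was control over knockdown in 1242 of 1242 genes, and it is reversed here. The deposited gene length is in bases. Coordinates are from GENCODE on GRCh38 (hg38).

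Library totals were recovered by finding the total that makes FPKM times gene length a whole read count (tolerance 1e-05). All 1242 values of each shControl and shFTO#5 library were whole. In the shFTO#2 libraries only 4 and 6 values were whole with the length on their own line, and 561 of 766 lines were tied to a gene by whole reads, ID order and level. Limma 3.58.1 in R 4.3.3, with an intensity trend, was run on log2(FPKM + 1) after leaving out genes that did not reach 1 FPKM in 2 libraries, with Benjamini-Hochberg adjustment over all genes in a fit, and tested on simulated data. The number of genes the authors tested was worked back from their largest p and its adjusted value.

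The groups follow the sample titles. Nothing states separate cultures, so errors may be technical. The members and lists were chosen with earlier results of these data known. Genes named are the members, FTO, listed members of the lists (at most 4 a list) and the 5 nearest profiles of each member. AKR1B1, TSKU, SMAD9, TNFRSF1A, TGFBR1 and the genes used to place the shFTO#2 lines were named after their values were seen. Counts of genes whose groups do not overlap were added after the values were seen. Scaling, pseudocount, filter, trend, samples in the fit, replicate block, tolerance and left-out replicates were varied.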

Additional observations from a re-analysis of the deposited data

Results flagged for a closer look

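CSF1 differed between the hairpins: shFTO#5 minus shFTO#2 was 0.43 in log2(FPKM + 1), with both shFTO#5 libraries above both shFTO#2 libraries. All 3 groups were clear of each other in 329 of 561 genes (58.6%). CSF1 had been called in opposite directions with the 2 hairpins. That fixes the sign of this difference and favours the order of the libraries, so its p-value is no independent test. Without shFTO#5 replicate 1 the difference was 0.39 and no longer passed (limma, adjusted p = 0.0588). FTO was left at 24.8% of control with shFTO#5 and 36.7% with shFTO#2, and the part of that difference in the CSF1 result was not tested.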

How the results depend on the processing

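The 8 results were recomputed under 89 alternatives, and 80 were counted as keeping the direction, the side of the threshold and, for values without a test, a move below the spread between replicates. That count is no measure of robustness. The 4 FTO alternatives of each hairpin were counted as kept without a check, and FTO was below control in all of them. With shFTO#2, 561 of 561 genes passed in the main fit, so staying under the threshold there was favoured by the listing. Some settings, such as leaving out the filter, returned the same values. The alternatives counted as not kept were the following, and their cause was not tested unless the setting shows it. The shFTO#5 difference of CSF1 went from 0.19 to 0.10 with libraries centred on their median and to 0.12 with quantile normalization, both computed over called genes only. That of CX3CL1 went from -0.52 to -0.71 with a pseudocount of 0.1 and -0.74 with 0, as a smaller pseudocount damps low genes less, to -0.61 with centring and to -0.31 with quantile normalization. The CSF1 difference between hairpins was 0.39 to 0.47 leaving out 1 replicate at a time, and no longer passed without shFTO#5 replicate 1 (limma, adjusted p = 0.0588; 0.0321 without shFTO#5 replicate 2); a group left with 1 library is assumed to vary like the others. The CX3CL1 difference between hairpins, which never passed, changed sign with centring (0.018) and without shFTO#2 replicate 2, with a range of -0.080 to 0.036 over left-out replicates. Reading CSF1 from the other line with whole reads, an alternative added after seeing the data, gave -0.97 for shFTO#2 and 1.16 between hairpins. Both were counted as kept, since direction and side of the threshold stayed. A filter of 10 FPKM leaves CX3CL1 out of the fit, so it has no value there.

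Labels share replicate numbers, and the correlation of same-numbered deviations was 0.22, 0.03 and 0.12 for the 3 pairs of groups. These are weak, and whether same-numbered samples share more than a number was not tested. With the replicate block the difference between hairpins was 0.43 for CSF1 (limma, adjusted p = 0.000482) and -0.02 for CX3CL1 (adjusted p = 0.834), and 105 genes passed in place of 77; no call of these genes changed. The count of genes passing between hairpins was 111 with centring (87 higher), 42 with quantile normalization, 0 without shFTO#5 replicate 1 (limma; 113 at an unadjusted p under 0.05) and 6 without shFTO#5 replicate 2. The 152 to 321 reads of CX3CL1 limit its precision.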
